A study of Mus musculus with 19 samples.

Results

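The comparison described here is that of astrocytes from APP-GFP mice with astrocytes from WT-GFP mice, in the hippocampus at 9 months of age. It uses 11 of the 19 RNAseq samples of the series, 4 from APP-GFP and 7 from WT-GFP mice, and 22969 of the 60567 listed genes, those with a mean normalized mRNA level of at least 10 in either group. All mice were males on a C57BL/6J background and had received, in the CA1 region of the hippocampus, an adeno-associated virus that encodes GFP under gfaABC1D, a synthetic promoter made from that of *Gfap*. APP-GFP mice are APP/PS1dE9 mice, which carry a chimeric mouse and human *App* gene with the Swedish mutations beside a further transgene, and which form amyloid plaques. WT-GFP mice are their littermates without these transgenes. GFP therefore marks the astrocytes that the vector reached, near the injection site, and not all astrocytes of the hippocampus. The remaining 8 samples, 5 of APP-SOCS3 astrocytes (same transgenes, with a vector for SOCS3 added to that for GFP) and 3 of GFP-negative cells from WT-GFP mice, are given here only as levels beside those of the 11.

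Astrocytes near amyloid plaques become reactive: they enlarge and raise the intermediate filament genes *Gfap* and *Vim*, and the JAK-STAT pathway, in which cytokine receptors activate the kinase JAK2 and the transcription factor STAT3, is one known route to that state. Microglia, the macrophages of the brain, gather at the same plaques. There they lower some genes of their resting, homeostatic state and raise a set called disease-associated microglia genes, among them the receptor *Trem2*, its adaptor *Tyrobp* and the cystatin *Cst7*. The comparison asks how the mRNA profile of hippocampal astrocytes differs in mice with amyloid pathology.

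Reads counted on genes ranged from 19331876 to 32621917 per sample in WT-GFP and from 24889613 to 26729305 in APP-GFP astrocytes. The number of genes with a read ranged from 15575 to 25514 in WT-GFP and from 16471 to 25273 in APP-GFP. WT-GFP replicates 1, 2 and 3 and APP-GFP replicate 2 stood apart, with fewer than 20000 genes each, although their reads were as many as those of the other samples. All 15 astrocyte marker genes were tested and none was called, with a median log2 fold change of −0.01 (range −0.17 to 0.47), so that astrocyte genes were present at like levels in both groups. Summed over the list, WT-GFP samples had 628237 to 990857, APP-GFP samples 661458 to 879342 and GFP-negative cells 30733 to 83652. The study counts the samples of each group as mice and states that both hippocampi of a mouse were sorted separately, and the labels name no mouse. The *p* values measure the spread between these samples and would be too small if some came from 1 mouse.

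Genes were called higher or lower when limma on log2(level + 1) gave both a *p*, before adjustment, no larger than 0.05 and a change of 1.5-fold or more. Of the 22969 genes, 513 were called (2.23%), 382 higher (1.66%) and 131 lower (0.57%) in APP-GFP astrocytes. By *p* alone, without a fold threshold, 542 genes passed, or 2.36%, fewer than the 5% that it passes where no gene differs. With Benjamini-Hochberg adjustment over all genes, limma kept 1 gene, *Cst7* (0.00435%). On whole reads recovered from the levels, edgeR kept 1 gene and DESeq2 24 at an adjusted *p* under 0.05. The levels of the groups did not overlap for 72 genes (0.313%), 53 higher (0.231%) and 19 lower (0.0827%). Over all genes tested, log2 fold changes had a median of 0.09, and 13124 of the 22969 were positive.

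**Figure D1:**
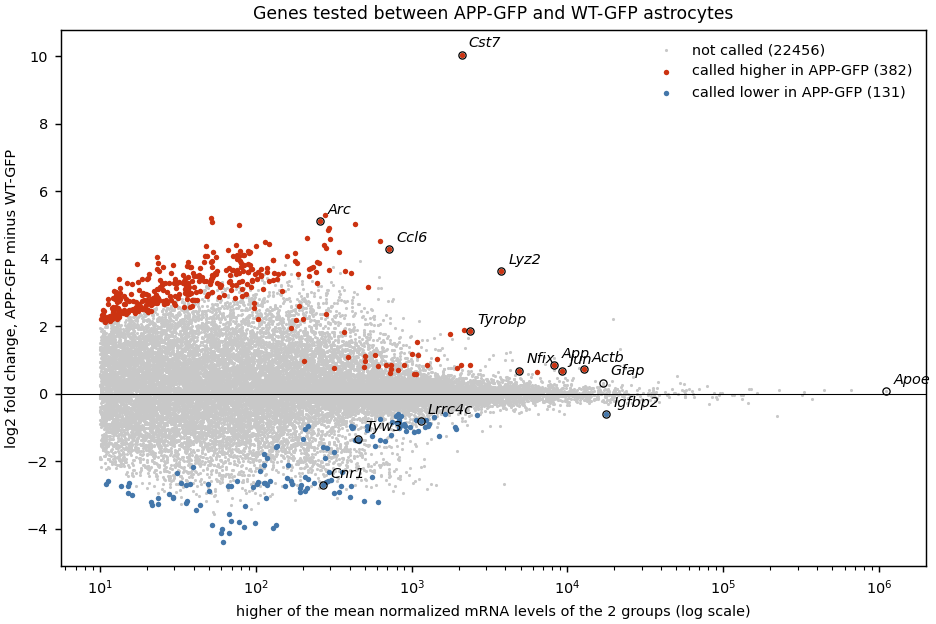
Log2 fold change of each tested gene, APP-GFP minus WT-GFP, against the higher of the mean normalized mRNA levels of the groups on a log scale, with called genes in colour and named genes circled. *Cst7* stands alone at 10.06, most genes called higher have low levels, and the astrocyte genes *Apoe* and *Gfap* lie near 0 at high levels.

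Genes called higher were mostly genes of low level in these cells. Of the 382, 89 had a mean of at least 100 in either group and 176 carried a symbol, against 91 and 83 of the 131 called lower. In 315 of the 382 (82.5%) the gene was listed at 0 in 3 or more of the 7 WT-GFP samples, against 0 of the genes called lower and 21.5% of all genes tested. The share of the genes called higher that was at 0 was 77.5% to 86.1% in WT-GFP replicates 1, 2 and 3, and 45.0% to 63.9% in replicates 4 to 7. The part of the low gene number of these 3 samples in the calls was not separated from that of the genotype. In the 4 WT-GFP and 3 APP-GFP samples with at least 20000 genes, chosen after seeing the data, 733 genes were called, 319 higher and 414 lower, of which 162 were among the 513. GFP-negative cells had a higher mean than WT-GFP astrocytes for 88.5% of the genes called higher, 37.4% of those called lower and 58.6% of all genes tested. Most genes called higher were near 0 in WT-GFP (median of the means 3.19), and GFP-negative samples had 30807 to 31897 genes with a read. The 88.5% thus follows in part from this selection, and a cell of origin was not tested.

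*App* encodes the amyloid precursor protein and lies on chromosome 16 (mm10, 84954437 to 85173743). Its levels in WT-GFP astrocytes were 1735 to 5624, with a median of 4831, and APP-GFP replicates 1 to 4 had 3663, 11151, 7779.6 and 10265. The groups overlapped, since APP-GFP replicate 1 was within the WT-GFP range, while the other 3 were above all WT-GFP samples. *App* was called higher (8215 ± 3353, n = 4, against 4385 ± 1258, n = 7, mean ± SD, log2 fold change 0.86, SE 0.346, 2-sided exact permutation *p* = 0.0424). The call was lost without APP-GFP replicate 2, 3 or 4 (leaving out single samples gave log2 fold changes of 0.65 to 1.21). It was also lost with homeostatic microglia genes as a covariate (0.56) and in the samples with at least 20000 genes (0.54). The *App* transgene is partly human, and how many of its reads map to the mouse gene is not known from the files. *Prnp*, the gene of the prion protein whose promoter drives the transgene, shares 1 entry with *Prn* and *Prnd*. That entry was at 1856 ± 353 in APP-GFP and 1914 ± 867 in WT-GFP (log2 fold change 0.07, exact *p* = 0.861). *App* levels were 2633 to 6011 in APP-SOCS3 astrocytes, which carry the transgene too, and 34150.4 to 42151 in GFP-negative cells.

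Disease-associated microglia genes were the list with the most called genes. Of 24 genes, all tested, 9 were called higher and 0 lower, against 2.23% of all genes, and 22 had a positive log2 fold change (median 0.80, range −0.04 to 10.06). The list and the genes named from it were chosen with results of these data known, and the study itself names some of its genes from these samples, so that the count is not independent evidence of a direction.

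*Cst7* (chromosome 2 from 150570414 to 150578944) encodes cystatin F, an inhibitor of lysosomal cysteine proteases. It was listed at 0 in 6 of the 7 WT-GFP samples and at 11.2 in replicate 5, while APP-GFP replicates 1 to 4 had 544, 2401, 4526 and 905. The groups did not overlap. The mean was 2094 ± 1809.7 (SD, n = 4) against 1.61 ± 4.25 (SD, n = 7), with a log2 fold change of 10.06 (SE 1.05, limma's Benjamini-Hochberg adjusted *p* = 0.0073). The exact permutation *p* was 0.00606, which 4 against 7 samples cannot go below. The size of this fold change depends on the pseudocount, as WT-GFP levels are at or near 0. Without APP-GFP replicate 2, 3 or 4 it was 9.84, 9.53 and 10.30, with limma's adjusted *p* at 0.0626, 0.0965 and 0.0598, and in the samples with at least 20000 genes it was 9.45 (adjusted *p* = 0.275). *Cst7* was also present in all 5 APP-SOCS3 samples, at 43.9 to 694, and in GFP-negative cells of WT-GFP mice, at 42.5 to 119. GFP-negative cells of APP-GFP mice were not analysed here.

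The other genes of the list that were called were at lower levels or partly present in WT-GFP astrocytes. *Ccl6* (chromosome 11 from 83587886 to 83593087), a chemokine, was at 0 to 98.6 in WT-GFP (median 50.1) and at 197, 897, 1481 and 305 in APP-GFP. *Clec7a*, the receptor dectin-1 for fungal glucans, was at 0 to 17.6 in WT-GFP (median 1.18) and at 21.7, 323, 126 and 19.2 in APP-GFP. *Lyz2*, lysozyme, was at 0 to 1531 in WT-GFP (median 561) and at 1756, 5303, 5648 and 2318 in APP-GFP. For these 3 genes, as for *Cst7*, every APP-GFP sample was above every WT-GFP sample (exact permutation *p* = 0.00606 each). Their log2 fold changes were 4.28 (SE 1.18), 4.43 (SE 1.27) and 3.64 (SE 1.59).

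*Tyrobp* (chromosome 7 from 30413788 to 30417577), the signalling adaptor of TREM2, was at 158 to 1176 in WT-GFP (median 673) and at 669.8, 2423, 5202 and 1168 in APP-GFP. *Trem2* was at 118 to 761 (median 499) and at 294, 2657, 3311 and 782. *Cd68*, a lysosomal membrane protein of macrophages, was at 112 to 1426 (median 443) and at 654, 3098, 3937 and 1000.0. In all 3 genes APP-GFP replicates 2 and 3 were above every WT-GFP sample, and replicate 1 was within the WT-GFP range. The log2 fold changes were 1.85 for *Tyrobp* (SE 0.597, exact *p* = 0.0545), 1.76 for *Trem2* (SE 0.729, exact *p* = 0.0667) and 1.90 for *Cd68* (SE 0.68, exact *p* = 0.0485). The call of *Tyrobp* held with each sample left out in turn. That of *Trem2* was lost without WT-GFP replicate 1 or 7 or APP-GFP replicate 2 or 3 (log2 fold changes from 1.27 to 2.43), that of *Cd68* without APP-GFP replicate 2 or 3 (1.49 to 2.35), and that of *Lyz2* without WT-GFP replicate 6 or APP-GFP replicate 2, 3 or 4 (2.30 to 4.06). *Lpl*, lipoprotein lipase, and *Igf1*, insulin-like growth factor 1, were also called, with log2 fold changes of 5.02 and 4.12. *Lpl* was at 0 to 221 in WT-GFP and 126 to 762 in APP-GFP, and *Igf1* at 0 to 31.5 and 16.3 to 168, each listed at 0 in 3 WT-GFP samples. *Cd68* and *Lyz2* were named after their values were seen.

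The other 15 genes of the list were not called. They include genes that astrocytes also express, such as the tetraspanins *Cd9* (log2 fold change 0.13) and *Cd63* (−0.04) and the cathepsins *Ctsb* (0.10), *Ctsl* (0.25) and *Ctsz* (0.28). *Ctsd*, another lysosomal protease, met the threshold on *p* but had a log2 fold change of 0.55, under the 1.5-fold threshold. *Spp1* (0.30), *Axl* (0.36) and *Gpnmb* (1.06), which microglia near plaques are known to raise, were not called, and *Itgax* was listed at 0 in all 7 WT-GFP samples and in 2 of the 4 APP-GFP samples. The genes named in this paragraph were chosen after their values were seen.

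**Figure D2:**
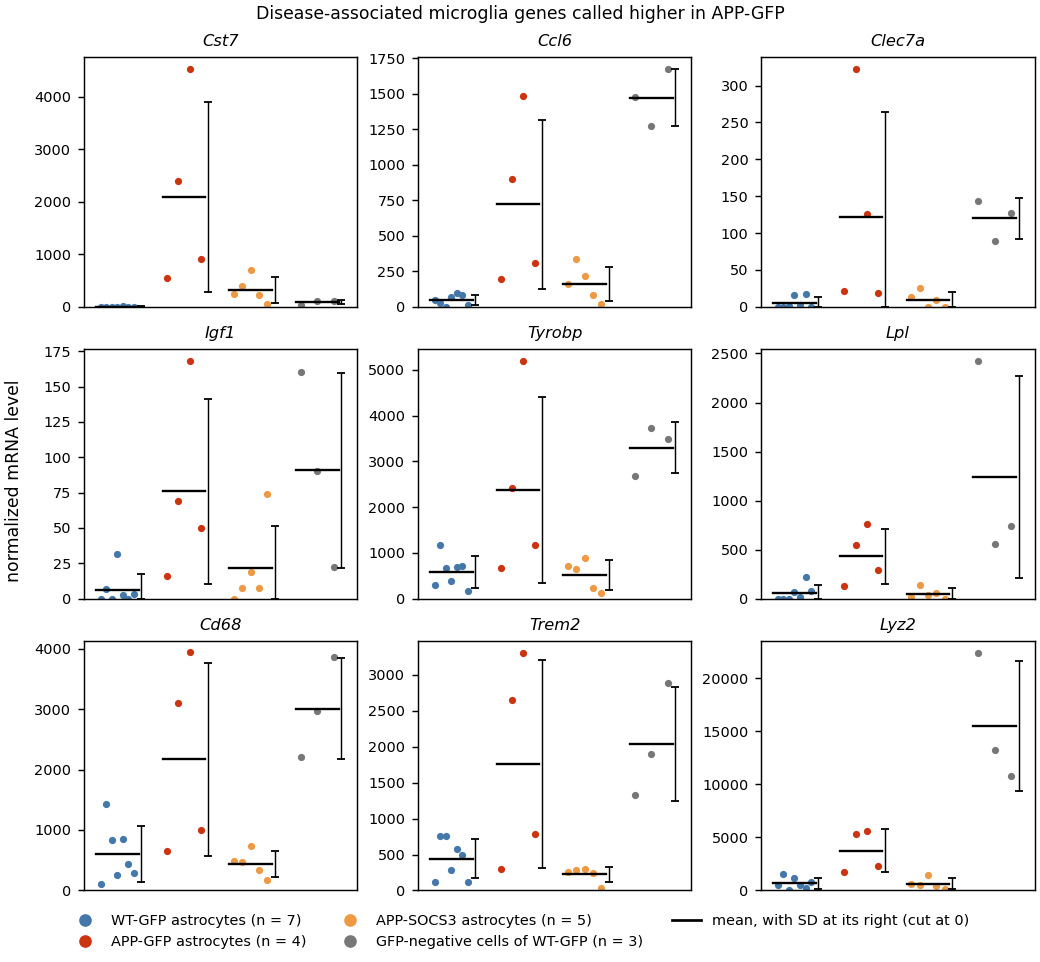
Normalized mRNA level in each sample of the 9 disease-associated microglia genes called higher in APP-GFP, with points for samples, lines for means and bars for SD (cut at 0), on linear axes from 0. APP-GFP samples spread widely, with replicates 2 and 3 the highest for each of the 9 genes, and *Cst7* reaches 11.2 in WT-GFP, 694 in APP-SOCS3 and 119 in GFP-negative cells.

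Microglial genes as such were present in the sorted astrocytes of both groups. Of 20 homeostatic microglia genes, 19 were tested, limma called none, and 18 of the 19 had a positive log2 fold change (median 0.45, range −0.07 to 2.67). On recovered reads edgeR and DESeq2 each called 3 of the 19 higher, and limma 4 without APP-GFP replicate 1. Their summed level was 13112 to 45674 in WT-GFP (median 31219), 17145, 74193, 87091 and 25618 in APP-GFP replicates 1 to 4, 9537 to 16368 in APP-SOCS3 and 146965 to 255289 in GFP-negative cells. None of the 20 genes was at 0 in all samples of a group. The summed level in APP-GFP replicates 2 and 3 was above that in every other astrocyte sample, and these are the samples with the highest *Cst7*, *Tyrobp* and *Trem2*. In bulk samples, more microglia among the sorted cells and more of these mRNAs per cell cannot be told apart. The defining homeostatic genes *Tmem119*, *P2ry12* and *Cx3cr1* had log2 fold changes of 0.01, 0.12 and 0.04 (exact *p* of 1, 0.83 and 0.964). Perivascular macrophage genes had a median of 1.85 over the 7 tested, with 0 called, and a summed level of 12.9 to 1087 in WT-GFP and 364 to 1212 in APP-GFP.

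To set the disease-associated genes beside the microglial signal of the same sample, each was expressed as a percentage of the summed level of the 20 homeostatic genes. *Cst7* stood at 0% to 0.0246% of that sum in WT-GFP, and at 3.17%, 3.24%, 5.20% and 3.53% in APP-GFP replicates 1 to 4. The 4 APP-GFP samples, which ranged from 544 to 4526 in *Cst7* level, were close to each other on this scale. APP-SOCS3 samples stood at 0.461% to 4.32%, and GFP-negative cells of WT-GFP mice at 0.0289% to 0.0636%. *Tyrobp* stood at 0.962% to 3.14% in WT-GFP and at 3.91%, 3.27%, 5.97% and 4.56% in APP-GFP. *Ccl6* stood at 0% to 0.382% and at 1.15%, 1.21%, 1.70% and 1.19%. *Lyz2* stood at 0% to 4.78% and at 10.2%, 7.15%, 6.48% and 9.05%.

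Of the 24 genes, 6 did not overlap between the groups on this scale, against 16 of all 22969 genes tested that were higher without overlap on it (0.0697%): *Cst7*, *Clec7a*, *Ccl6*, *Tyrobp*, *Cd68* and *Lyz2*. *Cst7*, *Clec7a*, *Ccl6* and *Lyz2* already did not overlap on levels. The list was chosen with results of these data known, so that this count is not independent evidence of a direction. Lower homeostatic mRNA per microglial cell would also raise these percentages, and this was not tested. For *Cd68* the margin was small, with 3.81% in the highest WT-GFP and 3.82% in the lowest APP-GFP sample. *Trem2* overlapped, with 0.721% to 2.03% in WT-GFP and 1.72%, 3.58%, 3.80% and 3.05% in APP-GFP. For 15 of the 24 the median of APP-GFP was above that of WT-GFP. On this scale, genes that astrocytes also express were low in the samples with a high sum. A larger divisor lowers any level that changes little, and *Ctsb* had a log2 fold change of 0.10. *Ctsb* stood at 131% to 432% in WT-GFP and at 253%, 102%, 82.8% and 231% in APP-GFP. With the mean log2 level of homeostatic microglia genes as a covariate in limma, 7 of the 24 genes were called, without *Trem2* (log2 fold change 0.90) and *Lyz2* (3.16), and *Cst7* kept a log2 fold change of 9.25. The covariate reduced the calls over all genes from 513 to 312, of which 218 were among the 513.

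**Figure D3:**
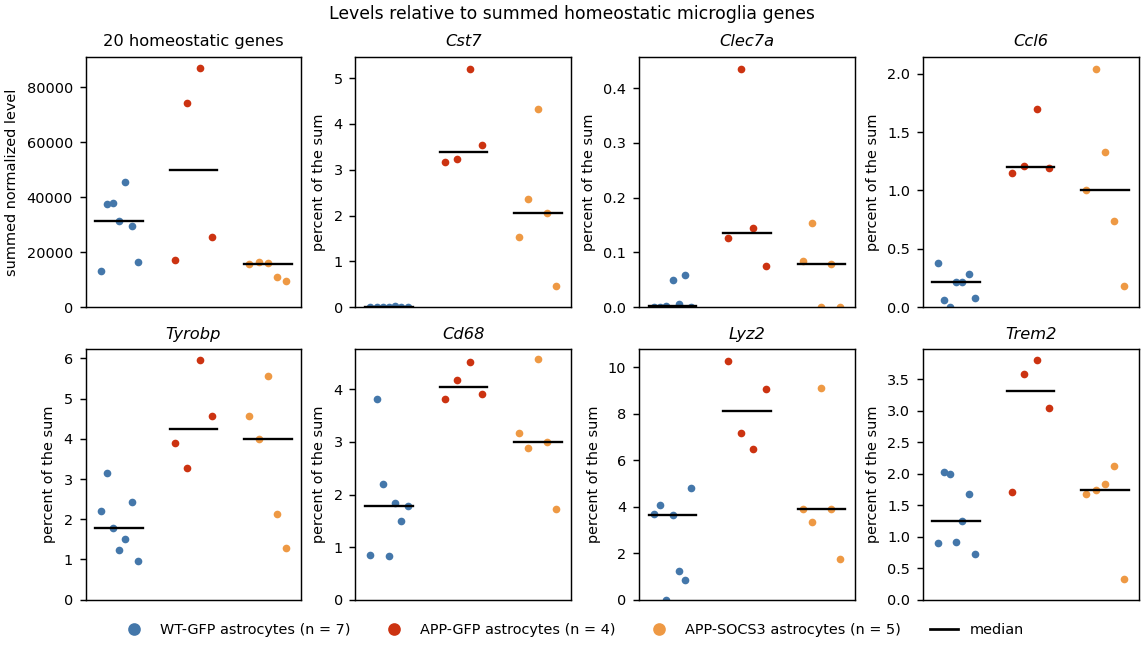
Summed normalized mRNA level of 20 homeostatic microglia genes in each astrocyte sample, and 7 disease-associated microglia genes as a percentage of that sum, with points for samples and lines for medians. *Cst7* stands at 3.17% to 5.20% in APP-GFP and at 0.0246% at most in WT-GFP, whereas the sum itself overlaps between the groups.

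The promoters of the genes called higher were searched for GAGGAAGT, a form of the sequence bound by the myeloid factor PU.1, on both strands of the 250 bases before the start, from RefSeq on GRCm38.p6. It was in 2 of 110 promoters of genes called higher with an entry in the table (1.82%), 2 of 58 of genes called lower (3.45%), 248 of 11230 of all genes tested (2.21%) and 0 of 7 of the called disease-associated genes. For TTCCNGGAA, a form of the sequence bound by STAT factors, these were 1 of 110, 1 of 58 and 109 of 11230 (0.971%), and for TCACGTGA, bound by factors of lysosomal genes, 2 of 110, 0 of 58 and 158 of 11230 (1.41%), with 0 of 7 for both. The shares were near those of all genes tested, and a match is no proof of a site. Only these forms were searched, so that the lack of a match is no proof that a site is absent. At a share of 2.21%, 0 of 7 is also a likely count. The promoter of *Cst7*, the gene that limma called after adjustment, is shown with those of *Slamf9* and *Cd72*, the genes called higher that hold GAGGAAGT, in capitals on either strand:
Cst7 (chr2:150570165-150570414, plus strand): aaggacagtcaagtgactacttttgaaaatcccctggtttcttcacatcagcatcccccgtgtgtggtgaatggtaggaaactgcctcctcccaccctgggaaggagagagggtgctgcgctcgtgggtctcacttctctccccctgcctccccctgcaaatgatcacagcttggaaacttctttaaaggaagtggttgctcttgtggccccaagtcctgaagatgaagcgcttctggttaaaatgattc
Slamf9 (chr1:172475110-172475359, plus strand): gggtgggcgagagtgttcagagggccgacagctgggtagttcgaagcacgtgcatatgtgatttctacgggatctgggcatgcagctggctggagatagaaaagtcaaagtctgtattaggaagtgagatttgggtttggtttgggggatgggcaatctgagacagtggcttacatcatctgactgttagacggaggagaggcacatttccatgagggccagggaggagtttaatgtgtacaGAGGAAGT
Cd72 (chr4:43454627-43454876, minus strand): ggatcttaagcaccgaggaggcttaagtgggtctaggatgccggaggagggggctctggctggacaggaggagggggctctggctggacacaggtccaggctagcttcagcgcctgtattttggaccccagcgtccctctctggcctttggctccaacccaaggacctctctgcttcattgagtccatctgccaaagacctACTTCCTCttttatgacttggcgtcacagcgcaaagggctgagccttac

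Both are genes of blood and immune cells, *Slamf9* a surface receptor of the SLAM family and *Cd72* a C-type lectin of B cells and myeloid cells. *Slamf9* was at 54.3, 752, 236 and 45.3 in APP-GFP and at 0 to 208 in WT-GFP (log2 fold change 4.42, exact *p* = 0.0545). *Cd72* was at 9.96, 442, 134 and 133 in APP-GFP and at 0 to 83.5 in WT-GFP (3.95, exact *p* = 0.0364). The groups overlapped for both genes, which were named after their values were seen. The call of *Slamf9* was lost without APP-GFP replicate 2 or 3 (log2 fold changes 3.63 to 5.24) and with the microglial covariate (3.81), and that of *Cd72* without APP-GFP replicate 2, 3 or 4 (3.22 to 5.00) and in the samples with at least 20000 genes (2.84).

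Other genes of immune cells among the 12 symbols of smallest *p* called higher were *Cd52* and *Hcar2*. *Cd52*, a short glycoprotein of leukocyte membranes, was at 29.0, 436, 517 and 206 in APP-GFP and at 0 to 53.1 in WT-GFP (log2 fold change 4.92, SE 1.40, exact *p* = 0.0182). *Hcar2*, the receptor for hydroxybutyrate and niacin, was at 34.4, 474, 457 and 143 in APP-GFP and at 0 to 137 in WT-GFP (5.30, SE 1.57, exact *p* = 0.0121). Both had their highest APP-GFP levels in replicates 2 and 3, the samples with the highest sum of homeostatic microglia genes, and GFP-negative cells had 407 to 490.0 and 334 to 597.

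Among the immune lists, calls were few. Complement genes had 0 of 22 tested genes called, with a median log2 fold change of 0.25 (range −2.64 to 1.09). *C1qa*, *C1qb* and *C1qc*, which encode the recognition molecule of the classical pathway, had log2 fold changes of 1.00, 0.90 and 0.88 (exact *p* of 0.194, 0.267 and 0.255), and their highest levels were in APP-GFP replicates 2 and 3. *C1qa* was at 1139.6, 5966, 7467 and 1226 in APP-GFP and at 532 to 3249 in WT-GFP. *C4b*, a complement gene that astrocytes themselves express, was at 16869 ± 7272 in APP-GFP and 13563 ± 3867 in WT-GFP (0.28, exact *p* = 0.43).

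Chemokines had 0 of 19 called by limma on a list that holds no *Ccl6*, with 17 positive and a median of 1.16. *Ccl4* was at 454, 1599.5, 3583 and 831 in APP-GFP and at 182 to 938 in WT-GFP (log2 fold change 1.16, exact *p* = 0.121), and *Ccl2* had 1.34 (exact *p* = 0.236). The list of interleukins, TNF and their receptors had 1 of 19 called, *Ltb*, lymphotoxin beta, whose entry includes a microRNA gene and which was at 31.7, 0, 53.4 and 6.97 in APP-GFP and at 19.2 in 1 WT-GFP sample and 0 in the other 6. *Il1b* was at 21.7, 189, 708 and 79.3 in APP-GFP and at 0 to 98.9 in WT-GFP, and was not called (2.67, exact *p* = 0.158). MHC class II genes, which present antigen to T cells, had 1 of 13 called, *H2-Ob*, at 0, 95.8, 114 and 28.8 in APP-GFP and at 0 to 13.8 in WT-GFP, with a median of 1.16 over the list. The calls of *Ltb* and *H2-Ob* were lost without any 1 of 9 and any 1 of 8 of the 11 samples. No gene was called among 22 genes of MHC class I and the immunoproteasome (median 0.27), 32 interferon-stimulated genes (0.47), 22 genes of the NF-kB pathway (0.17) and 18 Fc and Toll-like receptors (0.20).

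**Figure D4:**
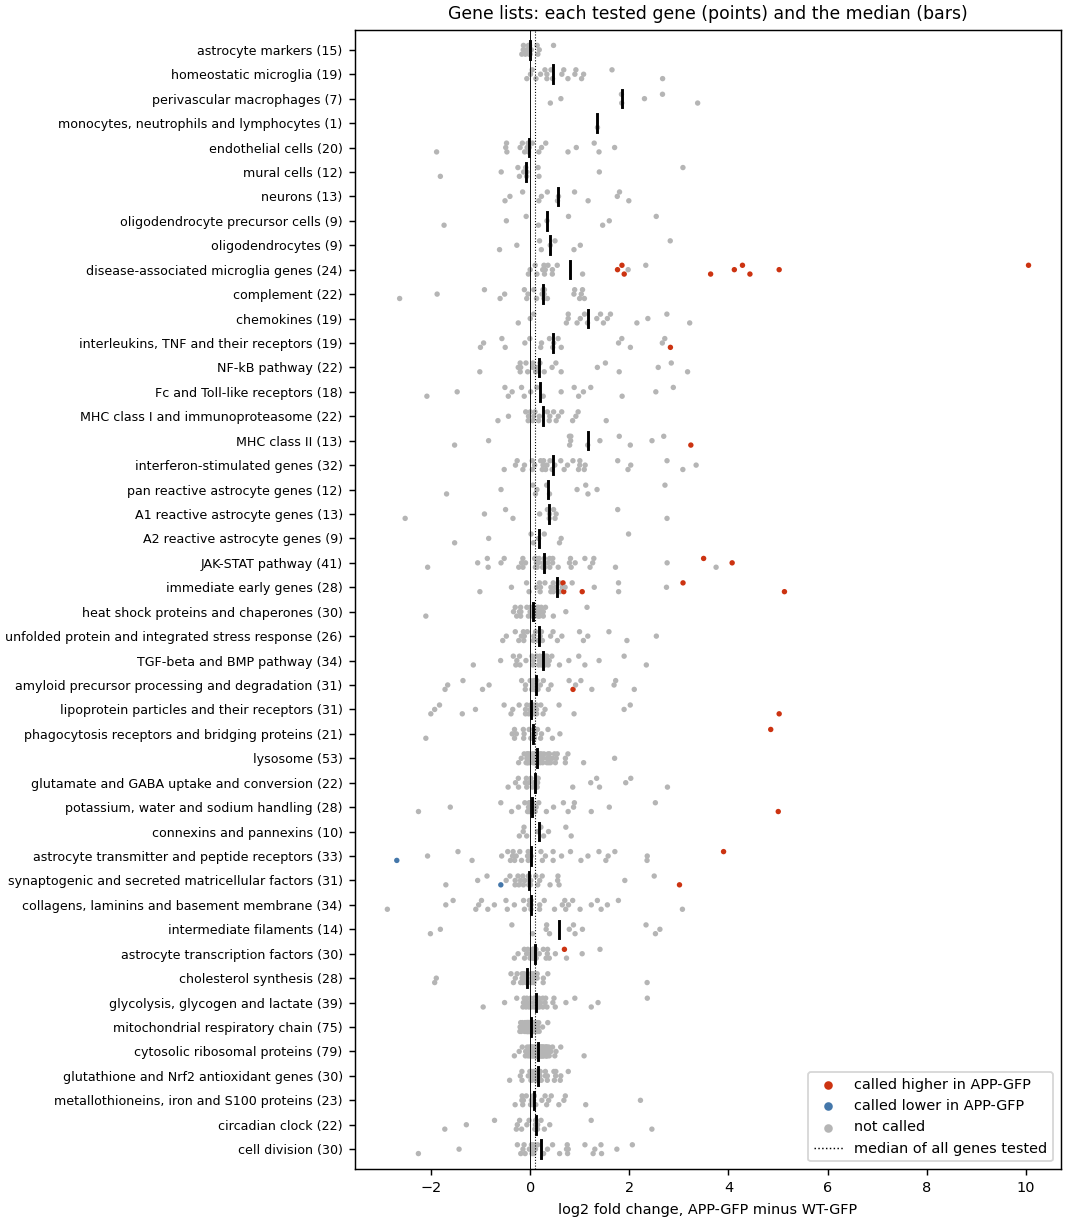
Log2 fold change, APP-GFP minus WT-GFP, of the tested genes of 46 lists, with points for genes (red called higher, blue called lower, grey not called), bars for list medians, the number tested in brackets and a dotted line for the median of all genes tested, 0.09. Called genes gather in the disease-associated microglia list (9 of 24) and the immediate early list (5 of 28), against 2.23% of all genes. Both lists were chosen with results of these data known, and mitochondrial and ribosomal genes lie close to 0.

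Immediate early genes, which neurons and glia induce within minutes of a stimulus and which tissue dissociation is also known to induce, were the list with the next most calls. Of 28 tested, 5 were called higher and 0 lower, against 2.23% of all genes. A positive log2 fold change was found in 24 (median 0.55, range −1.02 to 5.13), against 13124 of the 22969 genes tested. This list, too, was chosen with results of these data known, so that the count is not independent evidence of a direction. *Jun*, a subunit of the AP-1 transcription factor (chromosome 4 from 95049036 to 95052222), was at 4031 to 8773 in WT-GFP (median 5375) and at 12278, 7800.4, 8327 and 8594 in APP-GFP. *Egr1*, a zinc finger factor, was at 2253 to 6625 (median 4459) and at 6316, 7235, 6125 and 5814. *Nr4a1*, an orphan nuclear receptor, was at 293 to 1315 (median 633) and at 1232, 2182, 1437 and 985. For all 3 the APP-GFP samples lay in or above the upper part of the WT-GFP range, and the groups overlapped.

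Their log2 fold changes were 0.68 for *Jun* (SE 0.215, exact *p* = 0.0303), 0.66 for *Egr1* (SE 0.297, exact *p* = 0.0606) and 1.05 for *Nr4a1* (SE 0.403, exact *p* = 0.0424). *Arc*, a regulator of synaptic receptors, was at 0 in 4 WT-GFP samples and up to 218 in the other 3, and at 201, 399, 162 and 272 in APP-GFP (5.13, SE 1.7, exact *p* = 0.0182). *Sik1*, a kinase gene named after its values were seen, was at 0 to 81.9 and at 42.5, 157, 55.4 and 20.9 (3.08, exact *p* = 0.0545). *Fos*, the partner of JUN, was at 34495, 11258, 13552 and 32526 in APP-GFP and at 6489 to 24995 in WT-GFP and was not called (0.85, exact *p* = 0.133), and *Junb* was under the fold threshold (0.46, exact *p* = 0.0606). *Fos* and *Junb* were also named after their values were seen.

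The summed level of 31 listed immediate early genes was 39299 to 76373 in WT-GFP (median 52438) and 93658, 73052, 81722 and 86114 in APP-GFP, 33356 to 46965 in APP-SOCS3 and 441375 to 892378 in GFP-negative cells. Levels of *Jun*, *Egr1* and *Nr4a1* in APP-SOCS3 astrocytes were 5123 to 6585, 995 to 3015 and 169 to 493. Only 1 of the 5 calls, *Jun*, was made in the samples with at least 20000 genes, where *Egr1* had a log2 fold change of 0.30, *Nr4a1* 0.75, *Arc* 2.79 and *Sik1* 0.57. The call of *Jun* was lost without APP-GFP replicate 1 (log2 fold changes 0.53 to 0.78), that of *Nr4a1* without APP-GFP replicate 2 (0.83 to 1.22) and that of *Egr1* without any 1 of 7 of the 11 samples (0.52 to 0.78). That of *Sik1* was lost without any 1 of 8 of them (2.57 to 3.70), and that of *Arc* held (4.66 to 5.96).

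The classical genes of astrocyte reactivity were not called. *Gfap*, the intermediate filament of astrocytes (chromosome 11 from 102887337 to 102897200), was at 10570.4 to 16032 in WT-GFP (median 11308) and at 9125, 27459.9, 21597 and 9425 in APP-GFP. APP-GFP samples were thus on both sides of the WT-GFP range, replicates 2 and 3 above it and replicates 1 and 4 below it. The means were 16902 ± 9127 (SD, n = 4) and 12064 ± 1946 (SD, n = 7), with a log2 fold change of 0.33 (SE 0.278, exact *p* = 0.309). *Vim*, vimentin, was at 3047, 6337, 7153 and 6055 in APP-GFP and at 2366 to 7465 in WT-GFP (0.39, SE 0.332, exact *p* = 0.327). *Serpina3n*, a protease inhibitor raised in reactive astrocytes, was at 282, 998, 834 and 525 in APP-GFP and at 22.7 to 569.7 in WT-GFP (1.35, SE 0.752, exact *p* = 0.097). Replicates 2 and 3 were again the highest of APP-GFP for *Serpina3n*, as for *Gfap* and the microglial genes.

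Of the genes known from other models as pan reactive, A1 and A2, which are induced by both, by inflammation and by ischemia, limma called 0 of 12, 0 of 13 and 0 of 9 tested genes. Their median log2 fold changes were 0.36, 0.38 and 0.17, against 0.09 for all genes, with 10, 9 and 7 genes positive. Intermediate filament genes had 0 of 14 called (median 0.59, 11 positive).

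In the JAK-STAT pathway 2 of 41 genes were called higher and 0 lower (median 0.28, 30 positive). *Socs4*, a member of the family of cytokine signalling suppressors, was at 0 to 81.2 in WT-GFP (median 27.0) and at 214, 353, 206 and 100.3 in APP-GFP, without overlap (log2 fold change 3.50, SE 1.25, exact *p* = 0.00606). *Osm*, oncostatin M, a ligand of receptors that use gp130, was at 0, 432, 113 and 90.7 in APP-GFP and at 0 in 5 of 7 WT-GFP samples, with 67.5 as the highest. GFP-negative cells had 812 to 1375 of *Osm*. Its call was lost without any 1 of 8 of the 11 samples. *Stat3* was at 2817 ± 793 in APP-GFP and 2539 ± 740.5 in WT-GFP (0.17, exact *p* = 0.6), and *Socs3* at 1079 ± 493 and 834 ± 269 (0.29, exact *p* = 0.479).

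Genes of the handling of amyloid precursor, other than *App*, were not called (1 of 31 with *App*, median 0.12). *Apoe*, the main lipoprotein of astrocytes, was at 1112520 ± 260557 in APP-GFP and 1072520 ± 386251 in WT-GFP (0.09, exact *p* = 0.739). Of the 31 genes of lipoproteins and their receptors only *Lpl* was called (median 0.02), and of 21 phagocytosis receptors and bridging proteins *Stab2*, a scavenger receptor for hyaluronan. *Stab2* was at 123, 456, 128 and 447 in APP-GFP and at 0 in 4 WT-GFP samples and up to 239 in the others (4.85, SE 1.81, exact *p* = 0.0303), and at 0 to 54.4 in GFP-negative cells. Its call was lost without APP-GFP replicate 4 (4.35 to 5.66 with single samples left out), with the microglial covariate (4.14) and in the samples with at least 20000 genes (2.26). None of 53 lysosomal genes was called (median 0.14, 39 positive), although *Ctsd* and *Psap*, saposin precursor, met the threshold on *p* with log2 fold changes of 0.55 and 0.49. *Psap* was named after its values were seen.

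Lists of astrocyte functions held few calls. Of 28 genes that handle potassium, water and sodium, 1 was called, *Kcnj2*, the inward rectifier Kir2.1, at 50.7, 142, 89.0 and 28.8 in APP-GFP, and at 29.4 and 4.51 in 2 WT-GFP samples and 0 in the other 5 (log2 fold change 5.01, SE 1.18, exact *p* = 0.0121). It was at 0 to 7.84 in APP-SOCS3 astrocytes and at 239.7 to 649 in GFP-negative cells. Of 33 receptors for transmitters and peptides, *Adora2a*, an adenosine receptor, was called higher (3.90, exact *p* = 0.0364) and *Cnr1*, the cannabinoid receptor CB1, lower (−2.69, exact *p* = 0.0667). *Cnr1* was at 116 to 468 in WT-GFP and at 241, 0, 49.5 and 152 in APP-GFP. Each of these last calls was lost without any 1 of 7 of the 11 samples. Leaving out single samples moved *Cnr1* between −3.60 and −0.96, and it was at −0.40 in the samples with at least 20000 genes, which lack APP-GFP replicate 2, where it was listed at 0.

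Of 31 synaptogenic and matricellular factors, *Thbs2*, thrombospondin 2, was called higher (3.01, exact *p* = 0.0727), at 0, 86.3, 27.7 and 52.3 in APP-GFP and at 0 to 7.90 in WT-GFP. *Igfbp2*, which binds insulin-like growth factors, was called lower (−0.59, SE 0.271, exact *p* = 0.0727), at 10225, 9131, 13954 and 10999 in APP-GFP and 8888 to 33276 in WT-GFP. It had the highest level of the genes called lower that are named here, and its call was lost without any 1 of 9 of the 11 samples, and that of *Thbs2* without any 1 of 7. Glutamate and GABA uptake (22 genes, median 0.10), connexins and pannexins (10, 0.18), collagens, laminins and basement membrane (34, 0.02) and TGF-beta and BMP signalling (34, 0.25) had 0 called genes.

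Among 30 transcription factors of astrocytes 1 was called. *Nfix*, nuclear factor I/X, which acts in the formation of glia (chromosome 8 from 84704734 to 84800342), was at 5403, 6134, 4873 and 3244 in APP-GFP and at 2520.1 to 3947 in WT-GFP (median 2778). APP-GFP replicates 1 to 3 were above every WT-GFP sample and replicate 4 was within their range (4913 ± 1227 against 2999 ± 506, log2 fold change 0.69, SE 0.195, exact *p* = 0.0182). The call was lost without APP-GFP replicate 2 (log2 fold changes from 0.57 to 0.88). GFP-negative cells had 2380.2 to 2815, so that *Nfix* was higher in APP-GFP than in any of those samples.

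The other genes with symbols and the smallest *p* called higher were *Zfp90*, *D10Jhu81e*, *Actb* and *Mrap2*. *Zfp90*, a zinc finger repressor, was at 644, 1004, 599 and 709 in APP-GFP and at 321 to 486 in WT-GFP, without overlap (log2 fold change 0.85, SE 0.26, exact *p* = 0.00606). *D10Jhu81e* was at 1563, 814, 1176 and 874 and at 197 to 759, also without overlap (1.16, SE 0.359, exact *p* = 0.00606). *Actb*, cytoplasmic actin, was at 17177, 12752, 10261 and 11228 in APP-GFP and at 4397 to 10979 in WT-GFP (0.73, SE 0.232, exact *p* = 0.0121). In *Actb* only APP-GFP replicate 3 was within the WT-GFP range, and the call was lost without replicate 1 (log2 fold changes 0.58 to 0.83). *Mrap2*, an accessory protein of melanocortin receptors, was at 0, 359.6, 61.3 and 38.4 in APP-GFP, and at 6.92 in 1 WT-GFP sample and 0 in the other 6 (4.51, exact *p* = 0.0485).

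Genes called lower were of higher level than those called higher, and no list held more than 1 of them. The 12 with symbols and the smallest *p* had log2 fold changes of −1.40 to −0.64, and 4 of them did not overlap between the groups. *Lrrc4c*, the netrin-G ligand NGL-1 of synapses (chromosome 2 from 96318169 to 97631664), was at 578, 669.8, 708 and 615 in APP-GFP and at 856 to 1397 in WT-GFP (643 ± 58.0 against 1145 ± 221, −0.81, SE 0.217). *Tyw3*, an enzyme of tRNA modification, was at 107, 152, 241 and 237 in APP-GFP and at 304 to 667 in WT-GFP (−1.32, SE 0.358). *Tceb3*, the elongation factor elongin A, was at 554, 728, 721 and 799 and at 882 to 1793 (−0.78, SE 0.257). *Brms1l*, a subunit of Sin3 histone deacetylase complexes, was at 834, 713, 967 and 884 and at 1013 to 2047 (−0.67, SE 0.232). The exact *p* was 0.00606 for each of these 4. *Lrrc4c* has a second entry of low level, which was not called.

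Of the other 8 genes, *Ttc9c*, a tetratricopeptide protein, was at 673, 248, 460.0 and 817 in APP-GFP and at 802 to 1539 in WT-GFP (−1.10, SE 0.328). *Cep97*, a centriole protein that holds back the growth of cilia, was at 298, 123, 159 and 419 and at 309.6 to 769 (−1.25, SE 0.392). *Ctnnal1*, alpha-catulin, was at 236, 181, 249 and 432 and at 345 to 784 (−0.94, SE 0.327). In these 3, 1 APP-GFP sample, replicate 4, reached into the WT-GFP range. *Atp11b*, a flippase of membrane lipids, had a log2 fold change of −0.97, *Acd*, the telomere protein TPP1, −0.94, and *Fitm2*, which acts in the formation of lipid droplets, −0.64. The predicted genes *Gm30238* (−1.40) and *Gm12258* (−0.90) have no function known here. The exact *p* of these 8 genes was 0.0121 or 0.0182. The mean of APP-SOCS3 lay between those of the other groups for each of the 12, for example at 984 for *Lrrc4c* and 315 for *Tyw3*. For *Fitm2* it was 849.0, against 849.7 in WT-GFP. The 12 were chosen for low levels in APP-GFP against WT-GFP, so that a further group is likely to lie between by this choice alone. An effect of SOCS3 on them was not tested. The calls of 8 of the 12 held with each sample left out in turn, and that of *Brms1l* was lost without WT-GFP replicate 3, that of *Atp11b* without APP-GFP replicate 3, and those of *Acd* and *Fitm2* without APP-GFP replicate 2.

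**Figure D5:**
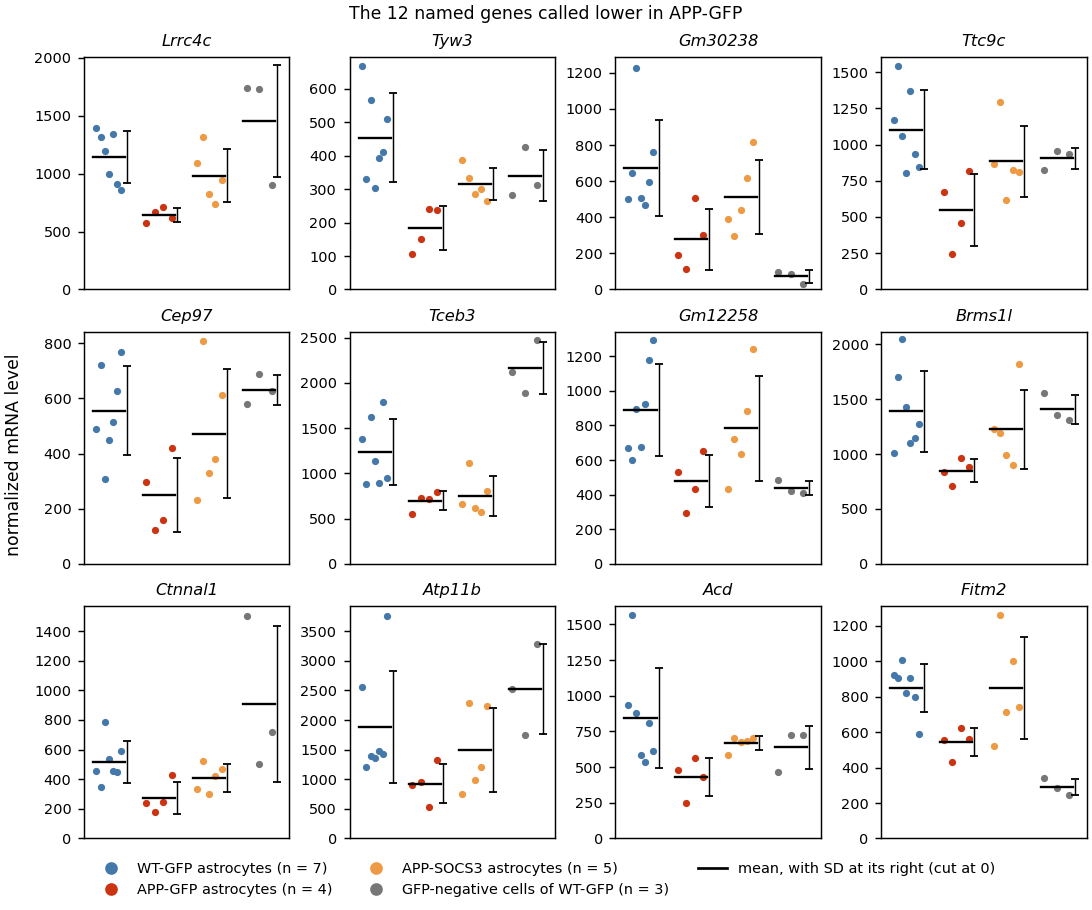
Normalized mRNA level in each sample of the 12 named genes called lower in APP-GFP, with points for samples, lines for means and bars for SD (cut at 0), on linear axes from 0. APP-GFP samples lie below all WT-GFP samples for *Lrrc4c*, *Tyw3*, *Tceb3* and *Brms1l*, and the remaining 8 genes overlap.

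Genes of metabolism and housekeeping differed little. All 75 tested subunits of the mitochondrial respiratory chain had log2 fold changes between −0.21 and 0.35, with a median of 0.01 and 0 called. Cytosolic ribosomal proteins had 0 of 79 called, 68 positive and a median of 0.15. Glycolysis, glycogen and lactate genes (39, median 0.13), cholesterol synthesis (28, −0.06), glutathione and Nrf2 antioxidant genes (30, 0.16), metallothioneins, iron and S100 proteins (23, 0.08), heat shock proteins and chaperones (30 symbols in 29 entries, 0.06), the unfolded protein and integrated stress response (26, 0.18), the circadian clock (22, 0.11) and cell division (30, 0.21) also had 0 called genes. The median of each of these lists was at most 0.21.

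Markers of the other cell types were not called in any list. Endothelial genes had 0 of 20 called (median −0.03), with summed levels of 44878 to 81225 in WT-GFP and 40667 to 84574 in APP-GFP. Mural cell genes had 0 of 12 called (−0.08), neuronal genes 0 of 13 (0.55) and genes of oligodendrocyte precursor cells 0 of 9 (0.34). Oligodendrocyte genes had 0 of 9 called (0.40), and their summed level was 4961 to 7349 in WT-GFP and 6850.5, 19416, 6539 and 6382 in APP-GFP. Of 14 genes of monocytes, neutrophils and lymphocytes 1 was tested, and it was not called.

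The counts of these lists are those of limma. Of the 34 lists with no called gene, edgeR on recovered reads called a gene in 10 and DESeq2 in 13, and 19 had none by either. Both called 3 lysosomal genes, *C1qa*, *Ccl4*, the Fc receptor chain *Fcer1g* and the intermediate filament *Prph* higher, and *Steap4*, of the pan reactive list, and *Erg*, an endothelial transcription factor, lower. EdgeR alone called *S100a9*, a neutrophil gene, and the myelin genes *Mbp* and *Mobp* higher. DESeq2 alone called *Ifit1*, an interferon-stimulated gene, *Stard4*, a carrier of cholesterol, and *Cdkn2c*, a cell cycle inhibitor, higher, and *Tapbpl*, of antigen presentation, and *Nid1*, of basement membranes, lower. The genes of this paragraph other than *C1qa* and *Ccl4* were named after their values were seen.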

How the data were processed

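RNA of GFP-positive astrocytes, sorted from dissociated hippocampi, was amplified with a low-input kit and sequenced. The submitters' processing notes name STAR 2.4.0 and mm10, and the authors deposited gene levels as counts divided by DESeq2 size factors (a normalized signal that is not corrected for gene length). Whole reads could be recovered from these levels for 100% of the values in each sample (within 0.001 of a whole read), with 1 read worth 0.759 to 1.18 in WT-GFP and 0.872 to 0.989 in APP-GFP samples, so that a count below 3 reads was near the limit of detection. Reads are PCR copies without molecular identifiers, and depth covers counting error only. Whether strand was used in counting is not given in the sources used here, so that overlapping genes are uncertain. The filter on intergenic background that the study describes was not repeated.

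Genes with a mean of at least 10 in either group were tested with limma 3.58.1 (R 4.3.3) on log2(level + 1), with 4 APP-GFP and 7 WT-GFP samples and no covariate, and called where p, before adjustment, was no larger than 0.05 and the change was 1.5-fold or more. Log2 fold changes are on this scale, differ from the log2 ratio of group means, and for genes at 0 in some samples their size depends on the pseudocount. Benjamini-Hochberg adjusted p was at least 0.999 for each named gene other than *Cst7*. Single genes were also tested by 2-sided exact permutation of the samples. The script was tested on simulated data. Alternatives were other pseudocounts, minimum levels, scalings, thresholds and covariates, a fit with APP-SOCS3 samples added, sample weights, a replicate block, each sample left out in turn, and count tests on the recovered reads with edgeR 4.0.16 and DESeq2 1.42.0. A fit on samples with at least 20000 genes was added after seeing the data.

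Named genes are *App* and *Prnp*, the 12 called genes in each direction with 1 symbol, a mean of at least 100 and the smallest p, the called genes of each list (at most 4 per direction, or the 2 of highest level where none was called), and genes that the study names for this comparison. *Slamf9* and *Cd72*, *Cd68*, *Lyz2*, *Sik1* and the homeostatic genes *Tmem119*, *P2ry12* and *Cx3cr1* were chosen after their values were seen. The groups, gene lists and named genes were chosen with earlier results of these data known. List genes that edgeR or DESeq2 alone called, and the disease-associated genes not called, were also chosen so. No set test was run. Some named genes are not reported here.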

Additional observations from a re-analysis of the deposited data

Results flagged for a closer look

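In 20 of 166 groups of samples examined, the highest or lowest sample stood apart. It lay farther from its nearest neighbour, relative to the whole range, than the 95% limit of Dixon's test allows. That limit assumes normal values, whereas these are linear levels and often 0, so that no rate expected by chance is given. With 6 of 7 samples at 0, as for *Cst7*, *Ltb* and *Mrap2* in WT-GFP, the gap equals the whole range whatever the other value. In 11 genes of low level the highest WT-GFP sample stood apart from the other 6. These were *Cst7* (11.2), *Igf1* (31.5), *Lpl* (221), *Sik1* (81.9), *Hcar2* (137), *Slamf9* (208), *Cd72* (83.5), *Osm* (67.5), the entry of *Ltb* (19.2), *Kcnj2* (29.4) and *Mrap2* (6.92). In abundant genes, the highest WT-GFP sample stood apart for *Gm30238* (1228, with 760.2 as the next), *Acd* (1563, next 935) and *Gfap* (16032, next 12801), and the lowest for *App* (1735, next 4136).

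In APP-GFP, *Mrap2* was at 359.6 in 1 sample, with 61.3 as the next. The number of genes with a read was 16471 in APP-GFP replicate 2, against 24859 or more in the other 3. The same sample had a summed level of oligodendrocyte genes of 19416, against 6850.5 at most in the other 3, and the highest WT-GFP sample had 7349. For mural cell genes the highest WT-GFP sample had a summed level of 35082, with 11695 as the next. The part of these samples in the called genes was not tested beyond leaving each out in turn.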

How the results depend on the processing

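Of the calls between APP-GFP and WT-GFP astrocytes, 1 remained at an adjusted p under 0.05 by limma, 1 higher and 0 lower, which is *Cst7*. There were 0 without APP-GFP replicate 2, 3 or 4, at a pseudocount of 0.1, at a minimum of 100, with the replicate block and in samples with at least 20000 genes (*Cst7* adjusted p 0.0598 to 0.893), 1 with edgeR and 24 with DESeq2. Without a minimum level 817 genes were called (680 higher), with a minimum of 100 there were 123 (53 higher, 70 lower), with sample weights 1100 (624 higher, 476 lower), and with the microglial covariate 312 (57 lower). On recovered reads, edgeR called 659 genes (247 lower) and DESeq2 530 (205 higher, 325 lower). With APP-SOCS3 samples in the fit 259 were lower, and in samples with at least 20000 genes 414. The share of calls that were higher was 74.5% in the fit reported, 62.5% with edgeR, 38.7% with DESeq2, 43.1% with a minimum of 100 and 43.5% in samples with at least 20000 genes. With each sample left out in turn there were 393 calls at the fewest, when WT-GFP replicate 1 was dropped, and 677 at the most, when APP-GFP replicate 2 was, 257 to 620 higher and 57 to 292 lower, of which 251 to 367 were among the 513. Same-numbered samples were not paired by the labels, and their deviations correlated at −0.03 to 0.15, so that a fit with a replicate block, which called 584 higher and 79 lower, is given only here.

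The disease-associated microglia list had 6 to 10 called genes with each sample left out, 6 to 9 of them among the 9, and 1 at an adjusted p under 0.05. For the immediate early list, 5 called genes became 2 with edgeR, 3 with DESeq2, 3 at a fold of 2, 1 in samples with at least 20000 genes, 0 at an adjusted p under 0.05 and 3 to 7 with each sample left out. *Tmem119* reversed from 0.01 to −0.86 with the microglial covariate, which is built from genes of its list. Of 46 called genes named here, 10 were called under every alternative but the adjusted p, among them *Cst7*, *Ccl6*, *Igf1*, *Tyrobp*, *Kcnj2*, *Socs4* and *Tyw3*. For all other results that changed, the cause was not tested. Genes called higher had low levels, with a median of the means of 3.19 in WT-GFP and 38.4 in APP-GFP. The number of genes with a read did not follow depth. WT-GFP replicate 1 had 32621917 reads and 19198 genes, and replicate 7 had 19331876 reads and 24974 genes.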
